A study of Mus musculus with 2 samples.

Results

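The Hedgehog ligands, receptors and co-receptors are 9 genes, Shh, Ihh, Dhh, Ptch1, Hhip, Smo, Gas1, Boc and Cdon. They were taken by symbol from their roles in the pathway, by a rule that uses no measured value, though earlier results of these data were known when they were picked. Each symbol was found once among the 55536 gene entries of the GENCODE M21 annotation. RNA came from limbs of B6NCrl mouse embryos, males and females together, taken on day 12.5 of development. The series holds 1 group of 2 libraries that the labels call biological replicates, replicate 1 from a pool of 88 embryos and replicate 2 from a pool of 68 embryos. Each library was primed with oligo-dT from 10 ng of RNA. There was no second age, tissue or treatment, so a difference between the libraries is a difference between pools, and in whole limbs fewer cells of a type and less RNA per cell cannot be told apart.

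Hedgehog proteins are secreted signals that bind Patched at the surface of a receiving cell. Unbound Patched holds back Smoothened, and a bound ligand lifts that block, so that Gli transcription factors switch on target genes, Ptch1, Hhip and Gli1 among them. In the limb, Sonic hedgehog from the posterior margin of the bud patterns the digits, and Indian hedgehog from maturing cartilage paces the growth of the long bones.

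The gene reads summed to 29633457 in replicate 1 and 30118921 in replicate 2, and spike-in RNA held 7.34% and 5.13% of TPM. TPM is a transcript level normalised for length and depth. All 9 markers of limb mesenchyme were above 1 TPM in both libraries, from Hand2 at 15.3 and 18.9 TPM to Msx1 at 361 and 389 TPM. The median log2 ratio of replicate 2 over replicate 1 over the 15926 genes whose mean was at least 1 TPM was 0.01, and 46.7% of these genes were lower in replicate 2.

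The 3 ligands are close relatives, and their coding sequences are most alike in the part that encodes the signalling domain. A stretch of 60 coding bases, shown because the ligand results rest on reads being assigned to the right paralog, reads as follows in GENCODE M21 on mm10, with capitals at the 46 positions that are identical in all 3 genes.
Shh: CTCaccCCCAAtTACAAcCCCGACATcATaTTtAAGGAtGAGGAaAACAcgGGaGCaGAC
Ihh: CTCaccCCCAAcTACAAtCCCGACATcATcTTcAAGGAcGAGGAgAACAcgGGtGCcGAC
Dhh: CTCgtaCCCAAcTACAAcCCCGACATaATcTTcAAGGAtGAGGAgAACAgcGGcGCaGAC
The stretch covers coding bases 229 to 288 of Shh on chromosome 5, 241 to 300 of Ihh on chromosome 1 and 229 to 288 of Dhh on chromosome 15, each on the minus strand. In it Shh and Ihh matched at 52 positions, Ihh and Dhh at 50, and Shh and Dhh at 49. The longest run that any pair of ligands shared over whole transcripts was 17 nt, and that of Boc and Cdon was 31 nt, against the 100 nt that the deposited effective lengths imply for a fragment.

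Co-receptor RNA was the most abundant of the 3 roles and ligand RNA the least. The 3 co-receptor genes summed to 330 TPM in replicate 1 and 304 TPM in replicate 2, the 3 receptor genes to 78.0 and 66.9 TPM, and the 3 ligand genes to 5.55 and 3.31 TPM. The place of the co-receptors rests on Gas1, since Boc and Cdon alone summed to 59.2 and 50.3 TPM, below the receptors. Of the 9 genes, 7 reached 1 TPM in both libraries, and Dhh and Shh did so in neither. From the highest mean the order was Gas1, Smo, Boc, Cdon, Ptch1, Ihh, Hhip, Dhh and Shh.

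**Figure D1:**
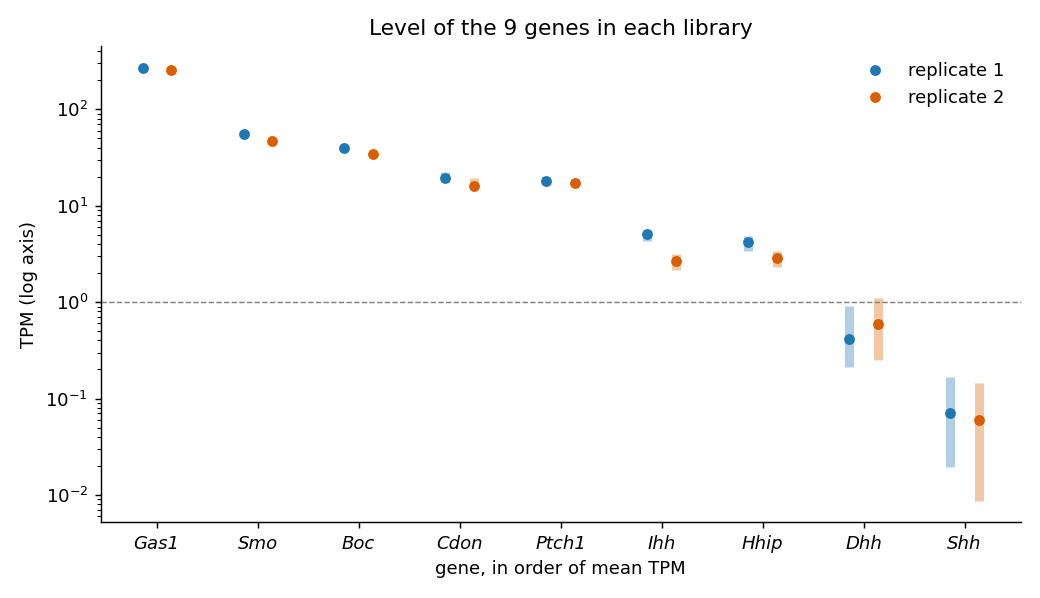
TPM on a log axis for each of the 9 genes in replicate 1 (blue) and replicate 2 (orange). Points are the deposited TPM and pale bars the deposited intervals, whose level is not given and which surround a second deposited estimate; the dashed line marks 1 TPM, and only Dhh and Shh lie below it.

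Shh, the ligand of the polarizing region of the limb bud, was close to the detection limit. In replicate 1 it stood at 0.07 TPM on 4 reads and in replicate 2 at 0.06 TPM on 3.36 expected reads, with deposited intervals from 0.0194 to 0.165 TPM and from 0.00874 to 0.144 TPM. Both libraries were thus low, and the gene was too low to test or to compare between them. Of the 100 nt windows of its single transcript, 18.6% also lie in genes of the opposite strand, 9530036O11Rik and Gm26894, which held 0 reads or under 1 read in each library.

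Ihh, the ligand of prehypertrophic cartilage, was the only ligand above 1 TPM. It stood at 5.07 TPM on 220 reads in replicate 1 and at 2.66 TPM on 119 reads in replicate 2, or 3.87 ± 1.704 TPM (SD, n = 2). The level was 1.91-fold higher in replicate 1, a log2 ratio of -0.93 for replicate 2 over replicate 1, with an adjusted p of 7.24e-07 by the exact binomial test. It was also past the local spread, taken as the 95th percentile of the size of the log2 difference between the libraries among the 500 genes closest to it in level, which was 0.80. The deposited intervals, 4.29 to 5.66 TPM and 2.18 to 3.14 TPM, did not overlap. Those of Hhip, Smo, Gas1 and Boc did not overlap either, though Hhip, Gas1 and Boc lay within the local spread. How often this holds over all genes was not counted, so it does not set Ihh apart.

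Dhh, the ligand known from Schwann cells and the testis, rested on 24 reads in replicate 1 and on 23.91, an expected count, in replicate 2. Its TPM was 0.41 and 0.59, with intervals from 0.213 to 0.903 TPM and from 0.251 to 1.10 TPM that overlap over most of their length. The sign of the difference depended on the scale, with a log2 ratio of 0.53 from TPM and of -0.02 from reads scaled by TMM. The gap follows the deposited effective length of the gene, 2931 nt in replicate 1 and 2036 nt in replicate 2. Of the windows of its longer transcript, 19.7% also lie in another gene, among them Rhebl1 of the same strand, which stood at 20.2 and 19.1 TPM.

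Ptch1, the receptor that ligands bind and a target of the pathway, was nearly equal in the libraries. It had 2081 reads and 17.97 TPM in replicate 1 and 1934 reads and 17.3 TPM in replicate 2, or 17.6 ± 0.509 TPM. The log2 ratio was -0.06, with an adjusted p of 0.0405 by the exact binomial test. Over other scalings, filters and M4 this adjusted p ran from 3.19e-04 with M4 to 0.0544 when genes under 1 TPM entered the adjustment. Its difference lay within the local spread of 0.39.

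Hhip, a membrane protein that binds ligands without passing on the signal, was the least abundant of the receptor genes. It stood at 4.19 TPM on 527 reads and at 2.84 TPM on 404 expected reads, or 3.52 ± 0.955 TPM. Replicate 1 was 1.48-fold higher, with a log2 ratio of -0.56 and an adjusted p of 4.01e-04 by the exact binomial test. The difference was smaller than the local spread of 0.93.

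Smo, the membrane protein that carries the signal into the cell, was the most abundant receptor gene. It had 3954 reads and 55.8 TPM in replicate 1 and 3300 reads and 46.8 TPM in replicate 2, or 51.3 ± 6.34 TPM, so replicate 2 was lower. The log2 ratio of -0.25 had an adjusted p of 2.20e-14 by the exact binomial test and was level with the local spread of 0.25, which it passed by less than rounding shows.

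Gas1, a lipid-anchored co-receptor, was the highest of the 9 genes and ranked 597 among the 15926 genes. It had 15287 and 14484 reads, or 271 and 254 TPM, a mean of 262 ± 11.9 TPM, with a log2 ratio of -0.09 and an adjusted p of 4.55e-07 by the exact binomial test. Its difference was under the local spread of 0.20. Of its windows, 13.8% also lie in Gm48488 of the opposite strand, which had 158 and 170 reads, so that reads of this overlap could not be told apart without strand.

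Boc and Cdon are co-receptors with immunoglobulin and fibronectin repeats, and both were lower than Gas1 in each library. Boc stood at 39.7 and 34.3 TPM, a mean of 37.0 ± 3.80 TPM, with a log2 ratio of -0.21 and an adjusted p of 1.58e-07 by the exact binomial test. Cdon stood at 19.5 and 15.9 TPM, a mean of 17.7 ± 2.55 TPM, with a log2 ratio of -0.30 and an adjusted p of 0.0209 by the same test. Both differences lay within the local spread, 0.27 for Boc and 0.39 for Cdon.

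Most steps in the order of levels were larger than the spread between the libraries. A pair was counted where its log2 TPM ratio had the same sign in both libraries and its smaller absolute value was over the local spread at the lower gene. Of 14 pairs 12 passed, and of the 8 pairs of neighbours 6 did. The neighbours were taken from the order of these same means, and how often pairs of other genes pass was not counted. Cdon and Ptch1 did not differ beyond the spread, with ratios of 1.09 and 0.922, nor did Ihh and Hhip, with ratios of 1.21 and 0.937. In both of these pairs the order turned between the libraries.

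Within the roles, Gas1 exceeded Boc 6.81-fold and 7.39-fold and Cdon 13.9-fold and 16.0-fold. Smo exceeded Ptch1 3.10-fold and 2.71-fold, and Ptch1 exceeded Hhip 4.29-fold and 6.07-fold. Ihh exceeded Dhh 12.4-fold in replicate 1 and 4.51-fold in replicate 2. In TPM the ratios among receptors and co-receptors thus varied less between the libraries than the ratio of Ihh to Dhh. That ratio is limited by Dhh, which rests on 24 and 23.91 reads. Its TPM also moved with its deposited effective length, 2931 and 2036 nt. With the 99th percentile in place of the 95th, 8 of the 14 pairs passed, and the pairs lost were Ptch1 over Ihh, Hhip over Dhh, Ihh over Dhh and Dhh over Shh.

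None of the 7 genes tested differed by the full rule, an adjusted p under 0.05 by the exact binomial test and at least a 2-fold TPM ratio. Over all genes 1.07% were called by it, 97 higher and 73 lower in replicate 2. With at least a 1.5-fold ratio 1 of the 7, Ihh, was called, against 2.73% of all genes. With no fold minimum all 7 were lower in replicate 2, against 9.78% of all genes lower and 9.09% higher. The 7 log2 ratios ran from -0.93 to -0.06 with a median of -0.25, and 2 of them were past the local spread, Ihh plainly and Smo at its edge. The test covers the counting error of 2 pools, and it makes small differences of abundant genes significant. The same 7 genes were lower under library sizes from TMM, DESeq2 and total counts and with GENCODE M4. Without the filter at 1 TPM 6 of the 9 were lower, Ptch1 no longer among them.

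**Figure D2:**
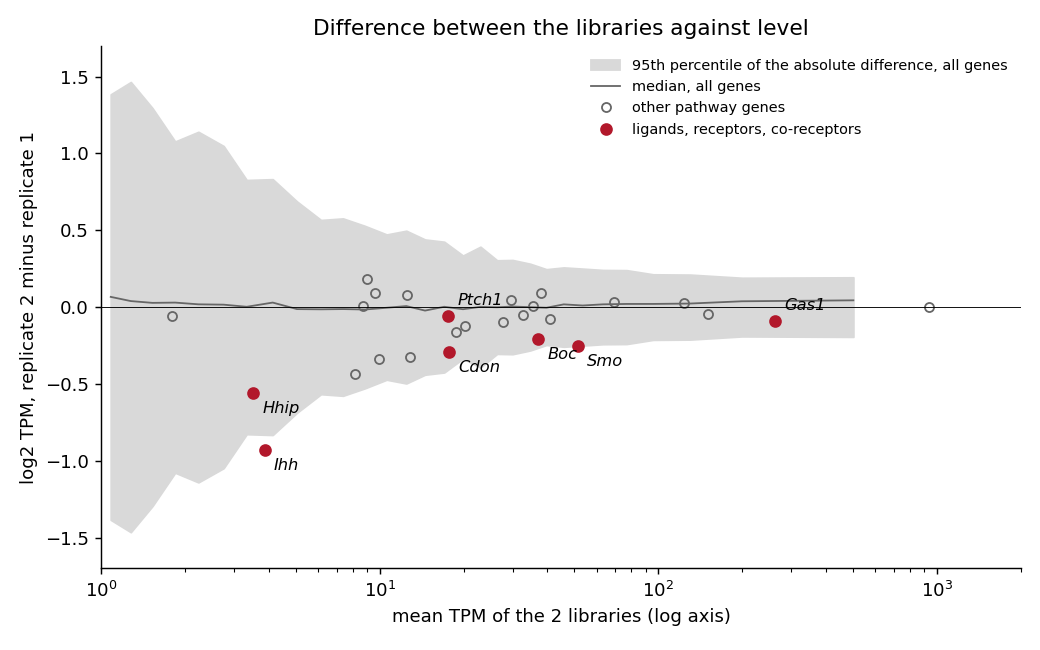
Log2 TPM ratio of replicate 2 over replicate 1 against mean TPM on a log axis. Filled red points are the 7 genes above 1 TPM, open points 20 other pathway genes, the line the median and the grey band the 95th percentile of the size of the difference of genes above 0 in both libraries, in bins by level; all 7 red points lie below 0, and Ihh stands outside the band.

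The RNA of several of the genes was split over annotated transcripts that do not encode the protein. Transcripts labelled as retaining an intron were seen for Ptch1, Smo and Ihh. The following sequences show where the spliced transcript of a gene and the one labelled as retaining an intron part. The last 30 bases of the shared exon are in capitals and the 30 bases that come next in lower case, from the GENCODE M21 transcripts.
Ptch1-202, spliced: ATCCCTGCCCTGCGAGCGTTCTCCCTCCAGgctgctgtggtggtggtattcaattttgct
Ptch1-210, read through: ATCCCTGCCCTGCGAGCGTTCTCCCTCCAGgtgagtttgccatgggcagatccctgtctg
Smo-201, spliced: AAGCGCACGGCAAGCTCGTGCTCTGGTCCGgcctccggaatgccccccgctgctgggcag
Smo-202, read through: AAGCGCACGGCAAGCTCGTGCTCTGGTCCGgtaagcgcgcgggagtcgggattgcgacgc
Ihh-201, spliced: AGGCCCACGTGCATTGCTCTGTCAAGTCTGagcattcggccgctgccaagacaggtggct
Ihh-202, read through: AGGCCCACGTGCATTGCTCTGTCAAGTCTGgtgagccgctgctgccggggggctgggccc
The Ptch1 exon is coding exon 12 of Ptch1-202 and ends at base 63539233 of chromosome 13 on the minus strand, before an intron of 4824 nt. The Smo exon is exon 1 of Smo-201 and ends at base 29736353 of chromosome 6 on the plus strand, before 17116 nt of intron. The Ihh exon is exon 2 of Ihh-201 and ends at base 74948304 of chromosome 1 on the minus strand, before 1556 nt of intron. Each read-through sequence goes on with the letters gt of a splice donor. The read-through transcripts end inside these introns, Ptch1-210 at base 63537463, Smo-202 at base 29738004 and Ihh-202 at base 74947724. None of them spans its intron, so they do not show that a whole intron was retained.

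Ptch1 was the most divided gene. Ptch1-202, a coding transcript, held 48.8% of its TPM in replicate 1 and 40.1% in replicate 2. Ptch1-210, a single-exon transcript of 2216 nt from 63537463 to 63539678, held 25.4% and 35.4%. Ptch1-210 was at 4.56 TPM on 190 reads and at 6.10 TPM on 258 reads, higher in replicate 2, whereas Ptch1-202 was at 8.76 and 6.92 TPM, lower in replicate 2. Without transcripts labelled as retaining an intron Ptch1 was at 12.9 and 11.2 TPM, and its log2 ratio moved from -0.06 to -0.21. The coding transcripts alone came to 10.3 and 8.36 TPM, 57.2% and 48.5% of the gene. Of the windows of Ptch1-210, 97.1% lie in no other Ptch1 transcript, against 1.13% of those of Ptch1-202, so the division among the long transcripts is an estimate from shared sequence.

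Smo and Ihh were carried mainly by their coding transcripts. Smo-201 held 93.0% and 88.7% of Smo TPM, at 51.9 and 41.5 TPM. Smo-202, labelled as retaining an intron, stood at 3.92 TPM in replicate 1 and 5.32 TPM in replicate 2. No test was made on transcripts. Ihh-201 held 84.1% and 88.1% of Ihh TPM, and Ihh-202 15.9% and 11.9% on 20.4 and 8.14 reads. The coding transcript of Ihh alone kept the difference, with 4.27 and 2.35 TPM and a log2 ratio of -0.86.

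Hhip-201, the coding transcript, held 67.1% and 76.9% of Hhip TPM and 94.4% and 96.5% of its reads. The short non-coding Hhip-202 of 1173 nt held the remaining 32.9% and 23.1% of TPM on 29.3 and 14.03 reads. Dhh was divided between Dhh-201, with 65.9% and 40.6% of TPM on 22.3 and 19.8 reads, and the 694 nt Dhh-202, with 34.2% and 59.4% on 1.66 and 4.15 reads. A few reads on a short transcript thus set the TPM of both genes in part.

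Among the co-receptors, Boc-201 is the only M21 transcript of Boc, so its 100% is fixed by the annotation. With M4, which lists 2 transcripts, Boc-201 held 3.06% and 3.16% of Boc TPM. Gas1-201 was listed with 100% of Gas1, but none of the windows of Gas1-202 lies outside Gas1-201. Cdon-206, a transcript of 2222 nt annotated as incomplete at its end, held 49.9% and 53.6% of Cdon TPM but 25.6% and 24.9% of its reads, and the full-length Cdon-202 held 41.0% and 46.4% of TPM and 73.3% and 75.1% of reads. Cdon-201 was listed at 0 reads, but none of its windows lies outside the other Cdon transcripts, so it could not be told apart from Cdon-202. The leading transcript by TPM was the same in both libraries for 8 of the 9 genes, and Dhh was the exception. By reads it was the same for all 9. Shh and Boc have 1 transcript each in M21, so their leading transcript could not differ.

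**Figure D3:**
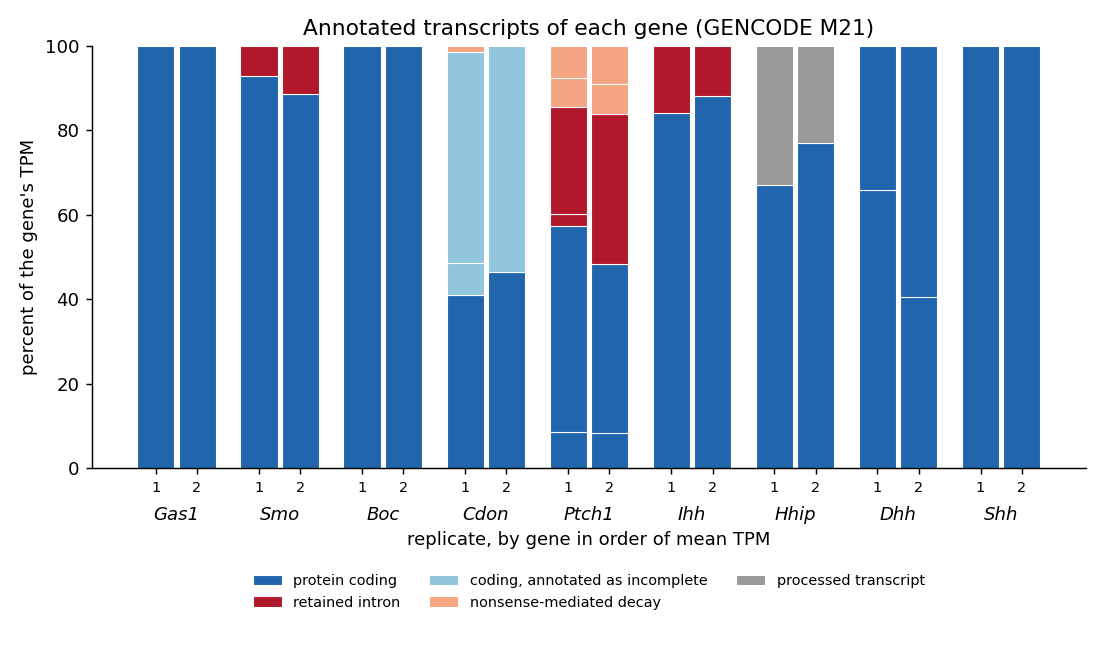
Percent of each gene's TPM held by its annotated transcripts in replicates 1 and 2, stacked and coloured by transcript class. Ptch1 carries the largest share outside coding transcripts, 42.8% in replicate 1 and 51.5% in replicate 2, and Gas1, Boc, Dhh and Shh are of 1 class throughout.

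The older GENCODE M4 quantification of the same libraries gave other levels for Ptch1 and Hhip. Ptch1 stood at 13.8 and 12.3 TPM with M4, whose tables hold no Ptch1-210, or -0.43 on the log2 scale against M21. Hhip stood at 6.12 and 4.22 TPM with M4, or 0.56 above M21 on the log2 scale, and Hhip-201 is 4582 nt long in M4 and 9074 nt in M21. Dhh-201 is likewise shorter in M4, 2363 nt against 4242 nt, Dhh-202 is not in the M4 tables, and Dhh was at 0.54 TPM in both libraries. For the other 6 genes M4 and M21 means differed by 0.21 or less on the log2 scale. With M4 13 of the 14 pairs passed, since Cdon then exceeded Ptch1 beyond the spread, and only Ihh and Hhip did not.

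**Figure D4:**
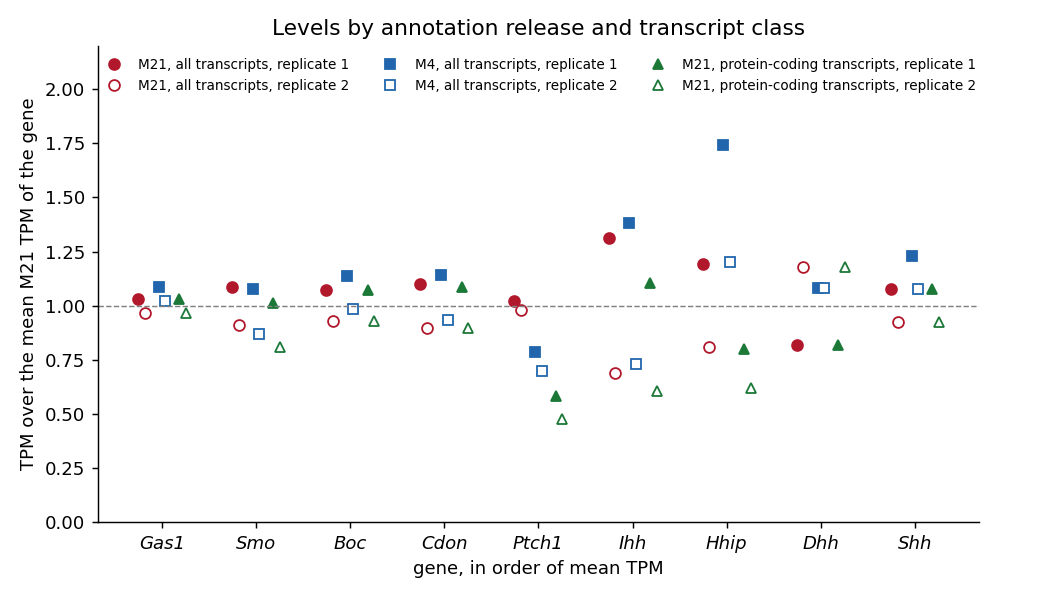
TPM of each gene divided by its mean M21 TPM, for all M21 transcripts (circles), all M4 transcripts (squares) and M21 coding transcripts (triangles), with replicate 1 filled and replicate 2 open. Ptch1 falls and Hhip rises with M4, and the coding transcripts of both lie below 1.

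Ptch1 and Hhip are known targets of the Gli factors, whose binding motif is GACCACCCA, so the promoters were searched for it. RefSeq (GRCm38.p6) gave windows from 250 bases before to 50 bases after the start for 7 of the 9 genes. On either strand GACCACCCA was in 0 of the 7 windows and in 0.253% of 32851 windows of all genes, and ACCACCC, contained in it, in 0 of 7 and in 4.61%. The shorter core CCACCC, contained in both, was in 4 of 7 windows, those of Ihh, Dhh, Hhip and Smo, and in 31.5% of all. The promoters of Hhip, the target gene, and Ihh, the gene that differed most between the libraries, are shown with CCACCC or its reverse complement GGGTGG in capitals.
Hhip, chr8:80057959-80058258, minus strand: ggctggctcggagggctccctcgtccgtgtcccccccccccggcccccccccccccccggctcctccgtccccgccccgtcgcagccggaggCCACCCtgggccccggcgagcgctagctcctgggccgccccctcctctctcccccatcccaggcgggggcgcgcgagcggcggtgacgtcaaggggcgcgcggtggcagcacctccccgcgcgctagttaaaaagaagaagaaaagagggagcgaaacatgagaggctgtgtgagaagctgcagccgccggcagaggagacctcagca
Ihh, chr1:74951623-74951922, minus strand: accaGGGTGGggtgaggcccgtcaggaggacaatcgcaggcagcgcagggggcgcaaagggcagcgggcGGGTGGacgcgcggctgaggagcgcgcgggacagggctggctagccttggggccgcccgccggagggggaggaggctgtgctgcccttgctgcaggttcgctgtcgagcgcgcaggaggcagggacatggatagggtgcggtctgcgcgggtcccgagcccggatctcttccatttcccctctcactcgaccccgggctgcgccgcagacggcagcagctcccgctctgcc
The match in Hhip begins at -158 and those in Ihh at -246 and -181 from the start. The windows of the 7 genes held from 44.7% to 76.3% G and C against a median of 52.7% over all windows. The Ptch1 window lies at the start of Ptch1-201, which held 8.52% and 8.33% of the gene, and the Cdon window, the lowest in G and C, at the start of Cdon-201. The Smo window takes base 29735497 as the start, 6 nt from that of Smo-202, which held 7.03% and 11.35% of the gene. The main transcript Smo-201 starts at base 29735694. The Gas1 window takes a start 170 nt from that of Gas1-201.

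Of 22 other genes of the pathway, 20 reached 1 TPM in both libraries. None of the 20 was called different by the full rule, against 1.07% of all genes. An unadjusted p under 0.05 by the exact binomial test was found for 9 of them, against 29.96% of all genes. Their median log2 ratio was -0.02, against -0.25 for the 7 tested genes and 0.01 for all genes. With no fold minimum 5 were lower and 2 higher in replicate 2 by the exact binomial test, against 9.78% and 9.09% of all genes. The 5 were Disp1, Scube3, Gli1, Gli2 and Gli3, and the 2 were Gpc6 and Grk2, of which Scube3, Gpc6 and Grk2 were named after their values were seen.

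Release and transport of the ligand were covered by 9 genes. Gpc3, a glypican that binds Hedgehog proteins, was the most abundant of all 22 at 934 and 935 TPM. Disp1, which releases the lipid-bound ligand, was at 19.8 and 17.6 TPM, with an adjusted p of 0.00256 by the exact binomial test. Lrp2, a large endocytic receptor, was the least abundant, with 0 reads in replicate 1 and 2 reads in replicate 2.

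In the cell, Sufu, which holds Gli factors inactive, was equal in the libraries at 35.3 and 35.5 TPM. Of the 10 genes of cytoplasm and cilium, 1 was higher and 0 lower with no fold minimum, near the 9.09% and 9.78% of all genes, at a median log2 ratio of 0.02. The 3 Gli genes were all lower in replicate 2 by that rule. Gli1, a target of the pathway, was at 11.1 and 8.76 TPM (log2 ratio -0.34, adjusted p 0.00236 by the exact binomial test). Gli2 was at 14.2 and 11.4 TPM with a log2 ratio of -0.32, and Gli3, whose cut form is the main repressor in the limb, at 42.1 and 39.9 TPM with a log2 ratio of -0.08. All 3 differences lay within the local spread, 0.47 for Gli1, 0.51 for Gli2 and 0.26 for Gli3.

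Most markers of cartilage, the tissue that makes Ihh, were also lower in replicate 2. Of the 18 cartilage markers 17 were tested, and 5 were called lower by the full rule and 0 higher, against 1.07% of all genes. With no fold minimum 14 were lower and 1 higher, against 9.78% and 9.09% of all genes. The 5 were Acan (8.07 and 3.90 TPM), Matn1 (24.0 and 9.65 TPM), Snorc (4.28 and 0.79 TPM), Comp (4.52 and 2.24 TPM) and Epyc (4.39 and 1.44 TPM), which encode proteins of the cartilage matrix or its surface. The median log2 ratio of the list was -0.45 and its summed level 1342 and 1168 TPM. The most abundant, the collagen gene Col2a1, was at 426 and 344 TPM, and Ucma was the least at 0.31 and 0.15 TPM. The cartilage transcription factor genes did not share the direction, with Sox9 at 197 and 195 TPM, Sox5 at 71.9 and 76.7 TPM and Sox6 at 60.8 and 73.0 TPM, of which Sox6 was higher past the local spread; the 3 were named after their values were seen.

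Of 7 markers of prehypertrophic and hypertrophic cartilage 6 were tested, and 1, the channel gene Panx3, was called lower at 3.80 and 0.49 TPM, against 1.07% of all genes. With no fold minimum 4 of the 6 were lower and 0 higher, against 9.78% and 9.09% of all genes. The list summed to 132 and 122 TPM with a median log2 ratio of -0.39, led by Pth1r at 63.9 and 61.1 TPM, and Col10a1, the collagen of hypertrophic cells, was the least at 0.33 and 0.45 TPM. No marker of either list was at 0. Whether the lower cartilage markers have a part in the lower Ihh was not tested.

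Of 8 markers of Schwann cell precursors, which are known to make Dhh, 6 were tested. Of these 1, the lipid-binding gene Fabp7, was called higher in replicate 2 at 2.30 and 6.66 TPM, against 1.07% of all genes. With no fold minimum 1 was lower and 2 were higher, against 9.78% and 9.09% of all genes. The list summed to 46.3 and 49.5 TPM, from Cdh19 at 0.57 and 0.66 TPM to Ngfr at 20.9 and 19.4 TPM. None of the markers of endothelium (Tek at 7.21 and 6.31 TPM to Egfl7 at 64.1 and 61.7 TPM), skeletal muscle (Pax7 at 0.35 and 0.32 TPM to Actc1 at 333 and 319 TPM) or ectoderm and apical ridge (Fgf4 at 0.38 and 0.39 TPM to Krt14 at 125 and 115 TPM) was called. With no fold minimum 2 of the 6 tested in each of these lists were lower and 0 higher, against 9.78% and 9.09% of all genes. Their median log2 ratios were -0.16, -0.06 and -0.14, in that order. Of the limb mesenchyme markers, which summed to 1007 and 1072 TPM, none was called either, against 1.07% of all genes. With no fold minimum 1 of these 9 was lower and 5 were higher, against the same shares, at a median log2 ratio of 0.11. Among these the forelimb gene Tbx5 was at 39.96 and 28.4 TPM and the hindlimb gene Pitx1 at 136 and 164 TPM, both past the local spread in opposite directions and named after their values were seen. The part of either in the results above was not tested.

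**Figure D5:**
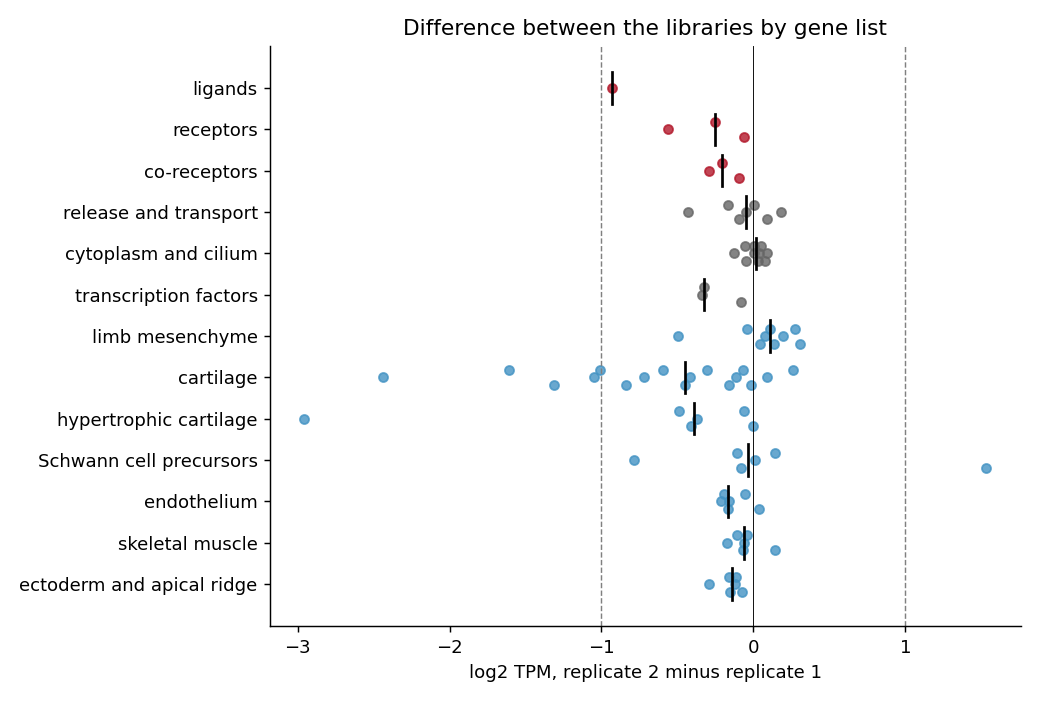
Log2 TPM ratio of replicate 2 over replicate 1 for each gene tested (points), by list, with the list's median as a black bar and dashed lines at a 2-fold ratio. Ligands (Ihh alone), receptors and co-receptors are red, other pathway genes grey and cell type markers blue; the cartilage lists reach farthest to the left.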

How the data were processed

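PolyA plus RNA of 12.5 day limbs was measured in 2 libraries of 1 group, cut by Nextera tagmentation per the labels. The authors deposited expected counts per gene and transcript, TPM with intervals of unstated level around a posterior mean, and each transcript's percent of its gene, all per the file headers. Each was quantified on mm10 with GENCODE M21, used here, and M4; which aligner, program version or strand setting was used is not given in the sources used here. TPM covers spike-ins, so their 7.34% and 5.13% lower all levels slightly.

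Expected counts were rounded and compared by an exact two-sided binomial test (scipy 1.17.1) with TMM library sizes (edgeR 4.0.16), adjusted by Benjamini-Hochberg over 15926 genes whose mean was at least 1 TPM. The test was chosen because 1 library a side leaves no replicate error. For that reason p-values cover counting error only. The reads carry no molecular identifiers, so added error from copied molecules is not covered. An exact permutation test of 2 against 2 values cannot go below 0.333. Genes were called at an adjusted p under 0.05 and a 2-fold TPM ratio, with reads and TPM in the same direction. The procedure was tested on simulated data that held counting error only, so its error rate between pools was not tested. Deposited TPM was used as it stands, so printed ratios carry no pseudocount.

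Windows of 100 nt were compared as exact sequence on both strands. Promoter sequences are from RefSeq, transcripts from GENCODE M21. The 9 genes, 22 other pathway genes, 62 markers in 7 lists and the rules were chosen with earlier results of these data known; 1 further pathway gene and its pair are not reported here. Named were all 9 genes, a fixed set of other pathway genes, the most and least abundant and all called genes of each list, and transcripts holding 10% of a gene. Alternatives were DESeq2 1.42.0 and total-count scaling, other minima, percentiles and numbers of nearest genes, a TPM + 1 ratio, TPM rescaled without spike-ins and mitochondrial genes, counts without length, M4 and either library alone.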

Additional observations from a re-analysis of the deposited data

How the results depend on the processing

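No paired analysis was possible because there is 1 group. The number of the 9 genes called different, 0, moved to 1 with a 1.5-fold minimum and to 7 with no fold minimum. Of all 15926 genes these rules called 435 and 3004. The number for the 9 genes stayed 0 with DESeq2 size factors and total counts (170 of 15926 genes called by each) and with no TPM filter (377 of 29220). It also stayed 0 with a 5 TPM filter (38 of 11338), M4 (145 of 15114) and the TPM + 1 ratio (95 of 15926). For the other pathway genes it was 0 under the alternatives run, namely both scalings, no TPM filter, the 1.5-fold minimum and M4. With so few of all genes called, 0 calls among so few genes do not set either list apart. Passing pairs ranged from 8 to 13. On counts not divided by length 12 passed, and there Smo over Boc and Dhh over Shh failed. The pairs of Cdon with Ptch1 and Ihh with Hhip passed there in the reverse order, as Ptch1 and Hhip had more reads in both libraries. The equal total of 12 thus does not mean that the order was kept. With the ratio of either library alone, and the spread still from both, 12 passed. That count could not fall below the main 12, since the main rule needs both ratios. Of the 9 genes 5 reached 5 TPM. From each library alone 7 of the 9 reached 1 TPM, and 20 of the other pathway genes. Neither count could be lower there, since the main rule needs both libraries. Of 54 log2 ratios 50 kept their sign. The others were of Dhh, 0 with M4 and reversed from reads, -0.0225 with TMM, -0.0231 with DESeq2 and -0.0287 with totals, where no length enters. Leaving out either library moves a mean of 2 by under the SD by construction. Of 23 other levels that could move, 15 moved by less than the SD; the other 8, of Shh, Ptch1, Hhip and Gas1, came from M4, rescaled TPM or coding transcripts, an alternative added after seeing the data. Depth limits Shh and Dhh, at under 5 and 25 reads.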
